A study of Mus musculus with 18 samples.

Results

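RNA bound to ribosomes was set against total RNA in livers of mice on a high-fat diet (HFD). The comparison used 6 of the 18 libraries of the study: the 3 HFD libraries of RNA from ribosome-nascent chain complexes (RNC) and the 3 HFD libraries of total poly(A) RNA (mRNA). The libraries were chosen by the diet and library kind in the labels, and the RNC and mRNA library of a liver were paired by the animal code that their deposited names share. All mice were male, wild type and C57BL/6. They were 8 weeks old when the diet began and 16 weeks old at sampling, after 8 weeks on HFD. The other 12 libraries came from livers of 3 mice on HFD plus lycopene (HFD+LYC) and 3 mice on the control diet, and are used here only where the HFD ratio is set beside theirs. For RNC, 90 mg of liver was lysed with Triton X-100 and cycloheximide, and ribosomes were pelleted through 30% sucrose. The pellet was not fractionated by ribosome number and the RNA was not cut to footprints, so a level in RNC counts reads over whole transcripts found with ribosomes.

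A ribosome-nascent chain complex is a ribosome on a messenger RNA with the growing protein attached. Cycloheximide stops elongation, so ribosomes stay on the message while the lysate is spun, and detergent lysis leaves most nuclei and their RNA out of the supernatant. Translated messages are therefore the main poly(A) RNA of such a pellet, while nuclear RNA and messages waiting in the nucleus are known to be depleted from it. Hepatocytes make most of the plasma proteins, translate these on ribosomes at the endoplasmic reticulum, and are rich in mitochondria.

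The RNC libraries of livers 1, 2 and 3 held 5535100, 11794164 and 12742436 listed reads, and the mRNA libraries held 9788785, 7684372 and 11613078. Hepatocyte markers were abundant in all 6 libraries: albumin (Alb) took 5.05%, 9.04% and 8.37% of the reads in RNC and 2.65%, 4.32% and 6.54% in mRNA. The first principal component, with 66.8% of the variance, placed the RNC libraries at 8.91, 64 and 54 and the mRNA libraries at -73.4, -57.8 and 4.21. The mRNA library of liver 3 thus stood apart from the other 2 mRNA libraries, and its closest library was the RNC library of the same liver, with r = 0.966 across genes. The RNC library of liver 1 stood apart from the other 2 RNC libraries and was the shallowest. Many results are therefore given with and without the livers concerned, where leaving one out moved a count by over 1.5 times or ended a call. This was not done for every count, and shares called by coding sequence length rest on all 3 livers only.

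Of 12,081 genes tested, 2034 were higher in RNC than in mRNA (16.8%) and 2307 were lower (19.1%), by edgeR's quasi-likelihood test with the liver as a block and a Benjamini-Hochberg adjusted p under 0.05. A call below means this test, and counts of calls in a list stand against these shares of 16.8% and 19.1%. The RNC and mRNA libraries did not overlap for 2113 genes that were higher (17.5%) and 2197 that were lower (18.2%), and 7871 genes had the same direction in all 3 livers. Without liver 1, 206 genes were called higher and 894 lower, and 201 of the 206 were among the 2034. Without liver 2 the counts were 1216 higher and 1427 lower, and without liver 3 they were 2179 higher and 2524 lower. Directions are relative to the scaling: TMM put the median of all genes at -0.04 on the log2 scale, while scaling by library size alone put it at -0.71. With library size alone 192 genes were higher and 5365 lower, so 3.46% of the calls were higher, against 46.9% with TMM. Both libraries of a pair came from 1 liver. Whether they held RNA of each cell type in like parts was not tested.

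Long non-coding RNAs held in the nucleus were among the genes far below their mRNA level in RNC. Malat1, a long non-coding RNA of nuclear speckles (GRCm38 chromosome 19, 5795690 to 5802672, minus strand, 1 exon), had 113, 26.2 and 42.8 CPM in the RNC libraries of livers 1, 2 and 3 and 1637, 1052 and 392 CPM in the mRNA libraries. Every mRNA library was above every RNC library, and in each liver the mRNA library was the higher of the pair. The fitted log2 ratio was -4.11 ± 0.364 (SE), which is 17.3-fold less in RNC (adjusted p = 1.06e-05). Neat1, the scaffold RNA of paraspeckles (chromosome 19, 5824708 to 5845480, minus strand), had 324, 60 and 75.9 CPM in RNC and 2075, 1283 and 202 CPM in mRNA. Its groups overlapped, because the RNC library of liver 1 was above the mRNA library of liver 3, but each liver had less in RNC (log2 ratio -2.82 ± 0.451, adjusted p = 0.000755). Kcnq1ot1, the antisense RNA of the imprinted Kcnq1 locus, lies on the strand opposite Kcnq1, and the labels do not say whether the counting used strand. Its row had 2.42, 1.24 and 2.1 CPM in RNC and 19.6, 22.9 and 9.82 CPM in mRNA (log2 ratio -3.13, adjusted p = 6.84e-05).

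Of the 26 nuclear and imprinted long non-coding RNAs listed, 12 were tested and 8 of them were lower in RNC, with none higher. The median log2 ratio of the 12 was -1.66, against -0.04 over all genes tested, and without liver 1 the count of lower calls was 6. Their summed level was 170 to 586 CPM in RNC and 778 to 4129 CPM in mRNA. Of the snoRNA host genes, whose introns carry small nucleolar RNAs, 6 of 18 were lower and none higher, with a median of -0.48. Without liver 1 there were 4 lower and none higher. Gas5, a snoRNA host whose transcript is known to be degraded when it is translated, had 28.1, 14 and 17.4 CPM in RNC and 49.6, 33.3 and 23.3 CPM in mRNA (log2 ratio -0.83, adjusted p = 0.0197). It missed the threshold without liver 1 (adjusted p = 0.149) and without liver 2. The 2 microRNA host transcripts tested, Mir17hg and Mir22hg, were both lower, at -1.89 and -1.44, and Mir22hg missed the threshold without liver 1 (adjusted p = 0.0736).

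Among genes with non-coding (NR) identifiers only, lower calls outnumbered higher ones. Of 387 such genes tested, 18 were higher (4.65%) and 128 lower (33.1%), with a median log2 ratio of -0.65. Of 11,205 genes with coding (NM) identifiers only, 1950 were higher (17.4%) and 2061 lower (18.4%), with a median of -0.02. The 489 genes with both kinds of identifier lay between, with 66 higher, 118 lower and a median of -0.18. Among NR-only genes, those annotated as long non-coding RNA gave 11 higher and 98 lower of 308, and transcribed pseudogenes gave 3 higher and 25 lower of 60. Without liver 1 the NR-only counts were 5 higher and 78 lower. The row with the lowest adjusted p among the NR genes named here was 4930470H14Rik, a long non-coding RNA with 1.69, 0.954 and 1.89 CPM in RNC and 25.7, 22.6 and 18 CPM in mRNA. Its 3 RNC libraries lay far below its 3 mRNA libraries, with a log2 ratio of -3.86 ± 0.35 (adjusted p = 5.15e-06). Mug-ps1, a transcribed pseudogene of the murinoglobulins, was lower at -2.79, and Cyp2d13, a transcribed pseudogene of the Cyp2d family, at -2.32. Reads of such pseudogenes and of their coding relatives may be split between them, so both values are uncertain.

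Reads of NR-only genes took 0.432%, 0.26% and 0.265% of the RNC libraries of livers 1, 2 and 3 and 1.91%, 1.55% and 0.554% of the mRNA libraries. Every liver had the smaller share in RNC, and the mRNA library of liver 3 had the lowest share of the 3 mRNA libraries. The means were 0.319% ± 0.0979 in RNC and 1.34% ± 0.702 in mRNA (SD, n = 3 each; exact two-sided sign-flip permutation test over 3 livers, p = 0.25, the smallest value that 3 pairs allow). Over the 9 livers of the 3 diets, the mean shares were 0.308% in RNC and 1.55% in mRNA, lower in RNC in 9 of 9 livers (exact two-sided sign-flip permutation test, p = 0.00391, the smallest value that 9 pairs allow).

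A few NR-only genes were higher in RNC. 1500011K16Rik carries only NR identifiers in the files, but the RefSeq table lists that name as a synonym of the protein-coding gene Mtln, whose product is a microprotein of the inner mitochondrial membrane. It had 43.8, 34.7 and 44 CPM in RNC and 9.63, 12.5 and 14.9 CPM in mRNA. The groups did not overlap, and the log2 ratio was 1.73 ± 0.267 (adjusted p = 0.000307). AW112010, annotated as long non-coding RNA and reported to be translated in mouse macrophages, had 85.7, 199 and 174 CPM in RNC and 39.5, 68 and 70.9 CPM in mRNA (log2 ratio 1.32, adjusted p = 0.000755). Gm10012, in RefSeq a pseudogene of the cytochrome c oxidase subunit Cox7c, was higher at 1.47, and its reads cannot be told apart from those of Cox7c where the sequences are alike. Its row also overlaps Gm26694 on the same strand and Rab40c on the other. Without liver 1 Gm10012 missed the threshold (adjusted p = 0.0593), while 1500011K16Rik and AW112010 passed (0.0227 and 0.0345). Of the 9 tested NR-only genes that RefSeq lists as protein-coding, 4 were higher and 2 lower.

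**Figure D1:**
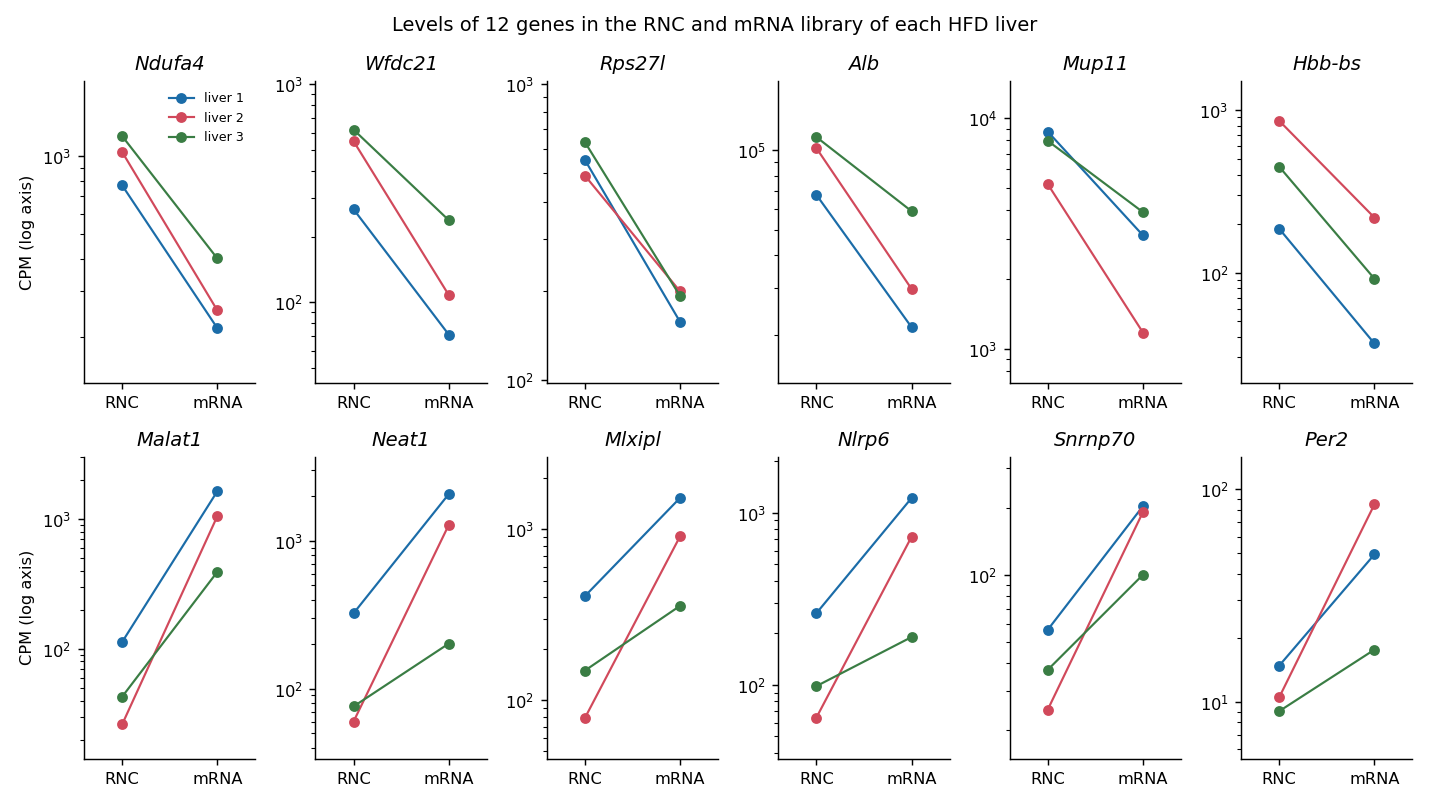
Levels of 12 genes in CPM on a log axis, with the RNC library on the left and the mRNA library on the right of each panel, and a line joining the 2 libraries of a liver. All 3 lines fall to the right for the 6 genes of the upper row, which were called higher in RNC, and all 3 climb to the right for the 6 genes of the lower row, which were called lower, with Malat1 at 113, 26.2 and 42.8 CPM in RNC and 1637, 1052 and 392 CPM in mRNA.

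Some protein-coding messages were also far lower in RNC. Mlxipl, Nlrp6 and Gcgr are among the mRNAs reported to be held in the nucleus in mouse liver. Mlxipl encodes ChREBP, the transcription factor that turns on lipogenic genes when glucose is high (chromosome 5, 135089890 to 135139768, plus strand). It had 407, 78.7 and 149 CPM in RNC and 1532, 913 and 357 CPM in mRNA. Only the RNC library of liver 1 reached the range of the mRNA libraries, and every liver had less in RNC (log2 ratio -2.22 ± 0.352, adjusted p = 0.000448). Nlrp6, an innate immune sensor, had 260, 64.3 and 98 CPM in RNC and 1215, 723 and 189 CPM in mRNA (chromosome 7, 140920902 to 140929192, plus strand; log2 ratio -2.22 ± 0.37, adjusted p = 0.000571). The groups overlapped through liver 1 in RNC and liver 3 in mRNA. Gcgr, the glucagon receptor, had 430, 189 and 208 CPM in RNC and 1085, 819 and 272 CPM in mRNA (log2 ratio -1.28, adjusted p = 0.00349). Without liver 1, Mlxipl and Nlrp6 passed and Gcgr did not (adjusted p = 0.0852).

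The coding genes furthest below their mRNA level formed no single family. Among those with a mean of at least 10 CPM, Col27a1, a collagen of cartilage, had 65.8, 8.3 and 19.6 CPM in RNC and 391, 173 and 65.8 CPM in mRNA (log2 ratio -2.86 ± 0.385, adjusted p = 0.000219). Abcc10, a drug efflux transporter, stood at -2.85, and Tle2, a transcriptional corepressor, at -2.74, and both passed without each liver in turn. Reads of Abcc10 and Tle2 may include transcripts annotated on the other strand at the same place. F830016B08Rik, a coding gene that overlaps another gene on the other strand, had 6.05, 0.954 and 2.42 CPM in RNC and 41.4, 68.7 and 32.6 CPM in mRNA (log2 ratio -4.11, adjusted p = 6.66e-05). In Cyp21a1, the steroid 21-hydroxylase, the row overlaps Tnxa on the other strand, and its log2 ratio was -2.76 (adjusted p = 0.00386).

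Regulators of RNA and of transcription were more often lower than higher. Of the 311 Zfp zinc finger genes tested, mostly DNA-binding repressors, 124 were lower and 2 higher, with a median log2 ratio of -0.78. Without liver 1, 55 were lower and none higher, and without liver 2, 80 were lower. Some low rows of this list also met the filter through mRNA alone, such as Zfp995 with 5 reads in RNC and 83 in mRNA. Splicing factors were mixed, with 23 of 78 lower, 11 higher and a median of -0.19. Over all genes 16.8% were higher and 19.1% lower, so the higher count was near that of genes at large. Without liver 1 there were 11 lower and 3 higher splicing factors. Snrnp70, the 70 kDa protein of the U1 small nuclear ribonucleoprotein, had 56.6, 24.8 and 37.4 CPM in RNC and 203, 191 and 99.9 CPM in mRNA, with no overlap (log2 ratio -2.06 ± 0.293, adjusted p = 0.000223). Prpf39, another U1 factor, stood at -1.94 and Clk2, a kinase of splicing factors, at -1.9, and both passed without each liver in turn.

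Clock genes, whose transcripts cycle over the day, were lower in 6 of 18 cases and higher in 1, with a median of -0.54. Per2, a repressor of the clock, had 14.8, 10.5 and 9.04 CPM in RNC and 49.4, 84.9 and 17.6 CPM in mRNA, with no overlap (log2 ratio -1.92 ± 0.339, adjusted p = 0.000774). Per3 was at -1.91 and Nr1d1, the nuclear receptor REV-ERBα, at -1.17. Of 17 immediate early genes tested, 4 were lower and none higher, with a median of -0.24, against 19.1% lower over all genes tested, so the lower count was near that of genes at large. The 4 included Socs3 at -1.41, Dusp1 at -1.16 and Zfp36, which promotes decay of AU-rich mRNAs, at -0.91. Without liver 1, Per2 and Per3 passed, while Nr1d1 (adjusted p = 0.0754) and the 3 immediate early genes (0.0636 to 0.162) did not. The counts without liver 1 were 2 lower clock genes and 0 lower immediate early genes, and without liver 2 there were 3 lower clock genes.

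Messages of short transcripts encoding the respiratory chain and the ribosome were higher in RNC. Oxidative phosphorylation is the making of ATP by complexes of the inner mitochondrial membrane, most of whose subunits are encoded in the nucleus. Of 80 such nuclear genes tested, 69 were higher and 1 lower, against 16.8% and 19.1% over all genes, with a median log2 ratio of 1.2. Library size alone left the median at 0.52 and the count at 33 higher. Their summed level was 22628 to 25899 CPM in RNC and 8624 to 13134 CPM in mRNA, with no overlap. Ndufa4, a subunit of cytochrome c oxidase (chromosome 6, 11900372 to 11907450, minus strand), had 771, 1038 and 1196 CPM in RNC and 216, 253 and 402 CPM in mRNA. The lowest RNC library was above the highest mRNA library (log2 ratio 1.81 ± 0.248, adjusted p = 0.000145). Ndufc2 of complex I was at 1.78 and Cox7a2 of complex IV at 1.75, and all 3 genes passed without each liver in turn. Without liver 1, 23 of the list were higher.

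Of 85 cytosolic ribosomal protein genes tested, 68 were higher and none lower, with a median log2 ratio of 0.9, and 84 of the 85 had a ratio above 0. Their summed level was 21699 to 26782 CPM in RNC and 11997 to 16037 CPM in mRNA. Rps27l, a ribosomal protein variant, had 552, 489 and 634 CPM in RNC and 157, 199 and 192 CPM in mRNA, with a wide gap between the groups (log2 ratio 1.61 ± 0.248, adjusted p = 0.000307). Rpl22l1 stood at 1.56 and Rps27a, a fusion of ubiquitin and a ribosomal protein, at 1.29. Rpl41, which encodes the smallest ribosomal protein, had 238, 279 and 356 CPM in RNC and 156, 137 and 258 CPM in mRNA (log2 ratio 0.7, adjusted p = 0.0314). Its groups overlapped through liver 3, and it missed the threshold without liver 1 (adjusted p = 0.199) and without liver 2, and Rps27a narrowly missed it without liver 1 (0.0501). Mitochondrial ribosomal proteins were higher in 50 of 78 cases and lower in 1, with a median of 0.86, and Mrps14 and Mrps18c were at 1.43 and 1.35. Without liver 1 only 2 cytosolic and 6 mitochondrial ribosomal protein genes were called higher, though without liver 3 there were 69 and 52. The cytosolic count was 36 with control and HFD libraries fitted together, 16 without the liver block and 0 in the fit of all 18 libraries. Library size alone gave medians of 0.22 and 0.19, with 5 cytosolic genes higher and 1 lower and 6 mitochondrial genes higher and 4 lower. Processed pseudogenes of ribosomal protein genes share sequence with them, so these counts are uncertain where reads could map to both.

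Among the factors that work with ribosomes, 24 of 67 translation factor genes were higher and 4 lower, with a median log2 ratio of 0.54, which library size alone turned to -0.13, with 1 higher and 16 lower. Eif1ax, which helps to choose the start codon, was higher at 1.44, and Eif3m, a subunit of the eIF3 complex, at 1.22. Eif4g3, a scaffold of the cap-binding complex, was lower at -1.33. Eef1a1, which brings aminoacyl-tRNA to the ribosome, had 2553, 4432 and 4310 CPM in RNC and 1370, 1782 and 3332 CPM in mRNA (log2 ratio 0.86, adjusted p = 0.0126). Eef2, the translocation factor, had 429, 560 and 515 CPM in RNC and 311, 356 and 708 CPM in mRNA and did not pass (log2 ratio 0.22 ± 0.263, adjusted p = 0.536). Both belong, with Tpt1, to the messages with a terminal oligopyrimidine tract, and Tpt1 was higher at 0.91 (adjusted p = 0.00673). Aminoacyl-tRNA synthetases gave 5 higher and 3 lower of 35, with a median of 0.1. The higher count was near the 16.8% over all genes tested. Library size alone turned this median to -0.57, with none higher and 14 lower. Without liver 1, 1 translation factor and 1 synthetase were higher and none lower, Eif1ax passed, and Eif3m, Eif4g3, Eef1a1 and Tpt1 did not (adjusted p 0.0548 to 0.175). Without liver 2, 12 translation factors and 3 synthetases were higher and 1 synthetase was lower, and Eef1a1 did not pass. Without liver 3, 6 synthetases were lower.

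Secreted liver proteins were higher in RNC in 43 of 82 cases and lower in 4, with a median log2 ratio of 0.68. Library size alone put this median at 0 and left 6 higher and 15 lower. Alb, the main plasma protein (chromosome 5, 90460870 to 90476602, plus strand), had 67712, 101779 and 112060 CPM in RNC and 21361, 29813 and 58727 CPM in mRNA. The groups did not overlap, and liver 3 had the smallest log2 ratio of the 3 pairs (0.93; fitted log2 ratio 1.46 ± 0.251, adjusted p = 0.00052). Apoc4, an apolipoprotein, was at 1.37 and Ttr, transthyretin, at 1.22. Apoa1 of high-density lipoprotein had 13415, 9179 and 9229 CPM in RNC and 7406, 6544 and 8897 CPM in mRNA. All 3 of its RNC libraries were above the mRNA libraries, but the test did not pass (log2 ratio 0.47 ± 0.246, adjusted p = 0.143), nor did that of Apob, whose protein forms very low density lipoprotein (0.5 ± 0.25, adjusted p = 0.123). Without liver 1 none of the secreted list passed, with adjusted p = 0.0626 for Alb, 0.0787 for Apoc4 and 0.0752 for Ttr, and without liver 2 the count was 24 higher and 1 lower.

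Major urinary proteins, pheromone carriers that male mouse liver secretes, were higher in 18 of the 19 genes tested, with a median of 1.43 and 0.76 by library size alone. Mup11 had 8735, 5169 and 7970 CPM in RNC and 3101, 1175 and 3910 CPM in mRNA, with no overlap (log2 ratio 1.55 ± 0.263, adjusted p = 0.000474). The Mup genes are near-identical copies, so the split of reads among them is uncertain. The list's summed level was 103875 to 379540 CPM in RNC and 42628 to 128507 CPM in mRNA, and the ranges overlapped. Without liver 1, 9 of the 19 were higher, Mup11 among them (adjusted p = 0.0347). Of other small secreted or membrane proteins, Wfdc21, a short protease inhibitor-like protein, had 267, 548 and 619 CPM in RNC and 71.1, 108 and 238 CPM in mRNA. Its groups did not overlap (log2 ratio 1.88 ± 0.263, adjusted p = 0.000173). Leap2, a liver peptide that blocks the ghrelin receptor, and Sec61g, the smallest subunit of the endoplasmic reticulum translocon, were at 1.69 and 1.7, and all 3 passed without each liver in turn.

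**Figure D2:**
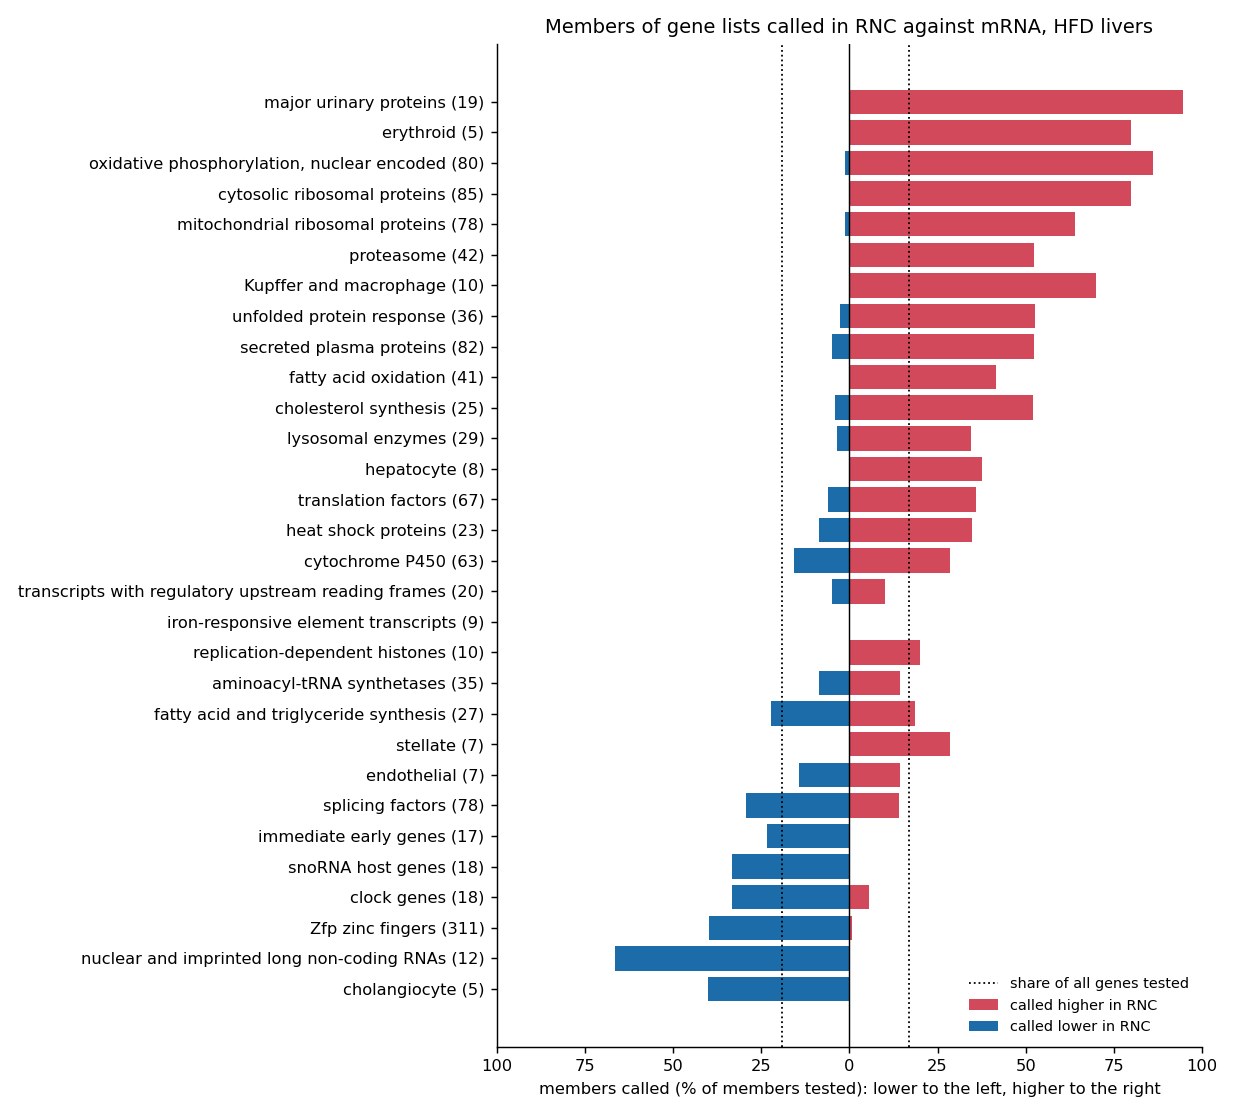
Share of the tested members of each gene list with at least 5 tested members that was called lower in RNC (to the left, blue) or higher in RNC (to the right, red), ordered by the list's median log2 ratio, with the number tested in brackets. Dotted lines give the shares over all genes, 16.8% higher and 19.1% lower; major urinary proteins (18 of 19), oxidative phosphorylation (69 of 80), cytosolic ribosomal proteins (68 of 85) and erythroid genes (4 of 5) extend furthest to the right, and nuclear long non-coding RNAs furthest to the left.

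Metabolic lists differed among themselves. Of 41 genes of fatty acid oxidation, 17 were higher and none lower, with a median log2 ratio of 0.64, which library size alone turned to -0.04, with 1 higher and 3 lower. Decr1, which prepares unsaturated fatty acids for oxidation, had 191, 396 and 326 CPM in RNC and 81.2, 116 and 196 CPM in mRNA (log2 ratio 1.25, adjusted p = 0.00162), and Etfa, which passes electrons to the respiratory chain, was also at 1.25. Genes of fatty acid and triglyceride synthesis gave 5 higher and 6 lower of 27, with a median of 0.04. Both counts were near the shares over all genes tested (16.8% higher and 19.1% lower). Library size alone turned the median to -0.63, with 2 higher and 14 lower. Scd1, the main hepatic fatty acid desaturase, had 8988, 22435 and 18884 CPM in RNC and 3201, 6779 and 11362 CPM in mRNA. Its groups overlapped, since the mRNA library of liver 3 was above the RNC library of liver 1, and every liver had more in RNC (log2 ratio 1.32 ± 0.257, adjusted p = 0.00104). Fasn, fatty acid synthase, had 536, 650 and 748 CPM in RNC and 583, 528 and 967 CPM in mRNA, with no call (log2 ratio -0.06 ± 0.245, adjusted p = 0.858). Cholesterol synthesis gave 13 higher and 1 lower of 25, with a median of 0.64 and, by library size alone, -0.03 with none higher and 3 lower, and Hmgcs1 and Sqle were at 1.15 and 1.25. Without liver 1 no gene of these 3 lists was higher and 2 of lipid synthesis were lower, and Decr1, Etfa, Scd1, Hmgcs1 and Sqle stood at adjusted p 0.0615 to 0.0901. Without liver 2 the higher genes numbered 7 in oxidation and 3 in cholesterol synthesis, and without liver 3 they numbered 9 in lipid synthesis.

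Cytochromes P450, the drug, steroid and fatty acid oxidases of the liver, gave 18 higher and 10 lower of 63, with a median of 0.34. Over all genes 16.8% were higher and 19.1% lower, so the lower count was near that of genes at large. Library size alone turned the median to -0.33, with none higher and 23 lower. Cyp2j9 was lower at -2.42. Cyp2e1, the ethanol-inducible form, had 3413, 6660 and 5128 CPM in RNC and 2312, 2392 and 4897 CPM in mRNA and just missed the threshold (log2 ratio 0.7 ± 0.274, adjusted p = 0.0521). Without liver 1 there were 0 higher and 6 lower P450 genes, and without liver 2 there were 9 of each. Mfsd2a, the transporter of lysophosphatidylcholine, had 70.7, 145 and 84.9 CPM in RNC and 127, 230 and 86.7 CPM in mRNA and did not pass (log2 ratio -0.51 ± 0.25, adjusted p = 0.114).

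Among genes of protein quality control, higher calls outnumbered lower ones in each of 4 lists. Proteasome subunits gave 22 higher and none lower of 42, with a median of 0.77 (3 higher and 1 lower with a median of 0.09 by library size alone), and Psma2 and Psma6 of the catalytic core were at 1.33 and 1.32. Genes of the unfolded protein response and of endoplasmic reticulum folding gave 19 higher and 1 lower of 36, with a median of 0.73. By library size alone they gave 2 higher and 11 lower, with a median of 0.06. Manf, a secreted stress factor of the reticulum, was at 1.36, Ssr1 of the translocon-associated complex was at 1.31, and the single lower gene was Syvn1, the ubiquitin ligase HRD1, at -1.15. Heat shock proteins gave 8 higher and 2 lower of 23, with a median of 0.34, which library size alone turned to -0.32, with 1 higher and 5 lower. Hspe1, the mitochondrial co-chaperonin, had 157, 263 and 298 CPM in RNC and 53.8, 62.3 and 116 CPM in mRNA, with no overlap (log2 ratio 1.66 ± 0.254, adjusted p = 0.000292). The 2 lower genes were the inducible Hspa1b at -1.37 and its testis-type relative Hspa1l at -2.3. These 2 genes lie close together on chromosome 17 and are alike in sequence. Lysosomal enzymes and membrane proteins gave 10 higher and 1 lower of 29, with a median of 0.58 and, by library size alone, -0.1 with 2 higher and 6 lower, and Ctss, a protease of macrophages, was at 1.36. Without liver 1 no proteasome or unfolded protein response gene was called, 1 heat shock gene and 2 lysosomal genes were higher, and Hspe1, Hspa1b, Hspa1l and Ctss passed. Psma2, Psma6, Manf, Ssr1 and Syvn1 then stood at adjusted p 0.0511 to 0.0639. Without liver 2, 11 unfolded protein response genes, 5 heat shock genes and 4 lysosomal genes were higher and Syvn1 was not called, and without liver 3, 16 lysosomal genes were higher.

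Transcripts with regulatory upstream reading frames or iron-responsive elements gave few calls. Of 20 with regulatory upstream reading frames, 2 were higher and 1 lower, against 16.8% and 19.1% over all genes tested, with a median of 0.31. Library size alone turned this median to -0.36, with none higher and 6 lower. Atf4, whose upstream frames hold back its translation in unstressed cells, had 157, 101 and 140 CPM in RNC and 205, 118 and 132 CPM in mRNA (log2 ratio -0.17 ± 0.24, adjusted p = 0.607). Azin1, which controls polyamine synthesis, was higher at 0.8 (adjusted p = 0.0148). None of the 9 iron-responsive element transcripts tested was called. Without liver 3, 2 were called higher, and library size alone called 4 lower. Fth1 and Ftl1, the ferritin chains whose translation iron turns on, had log2 ratios of 0.62 ± 0.245 and 0.56 ± 0.246 (adjusted p = 0.0525 and 0.0833). Replication-dependent histones, most of whose messages carry no poly(A) tail, gave 2 higher and none lower of 10, with Hist1h2bc at 0.95. Their higher count was near the 16.8% over all genes tested. Only 2 of 131 small structured RNAs were tested, and neither was called. Without liver 2, 1 of them was higher, and without liver 3, 1 was lower. Without liver 1, Azin1 (adjusted p = 0.186), Hist1h2bc (0.103) and the other members of these lists did not pass.

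Transcript length moved with the ratio across genes. Within livers 1, 2 and 3, the Spearman correlation of the log2 RNC to mRNA ratio with the length of the longest transcript was -0.361, -0.355 and -0.356 over the 12,081 genes. For coding genes alone it was -0.378, -0.377 and -0.368, and for genes averaging at least 10 CPM it was -0.476, -0.42 and -0.428. These values describe each liver, since genes of a library are not independent. They share the library's depth and scaling. Coding genes with a longest transcript under 1000 nt had a median log2 ratio of 0.89, with 62.9% higher and 1.37% lower. Those over 5000 nt had a median of -0.49, with 3.96% higher and 33.6% lower. The classes between had medians of 0.32 (1000 to 2000 nt), -0.05 (2000 to 3000 nt) and -0.24 (3000 to 5000 nt). With library size alone the class medians of coding genes ran from 0.22 to -1.16, so the order of the classes was kept while the level at which it crossed 0 moved. Without liver 1, 116 of the 801 coding genes under 1000 nt were higher and 5 lower, and 255 of the 1945 over 5000 nt were lower and 2 higher. Without liver 2, 428 of those over 5000 nt were lower.

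The median ratio of NR-only genes was below that of coding genes of like length in each of the 5 length classes. The NR-only medians were 0.05 under 1000 nt, -0.48 at 1000 to 2000 nt, -1.03 at 2000 to 3000 nt, -0.96 at 3000 to 5000 nt and -1.52 over 5000 nt, the last from 20 genes. In the class over 5000 nt, 12 of 20 NR-only genes were lower (60%) and 1 was higher.

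**Figure D3:**
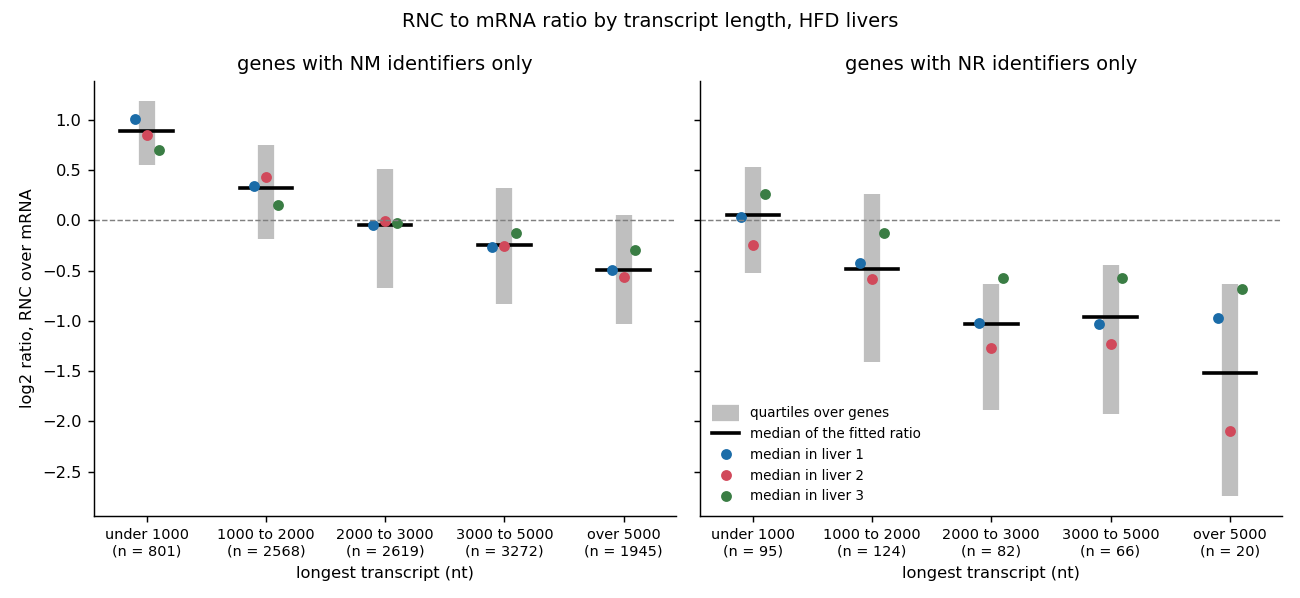
Log2 RNC to mRNA ratio by length class of the longest transcript, for genes with NM identifiers only (left) and NR identifiers only (right). Black bars are medians of the fitted ratio, grey bars the quartiles over genes, and coloured points the median in each liver; coding medians step down from 0.89 to -0.49, and NR-only medians are 0.05, -0.48, -1.03, -0.96 and -1.52 from the shortest to the longest class.

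Of the transcript features examined, the length of the coding sequence had the correlation furthest from 0. The coding sequence could be assigned to 11,633 of 11,694 tested genes with an NM identifier (99.5%) in the GENCODE annotation of the same build. Over these genes the Spearman correlation of the fitted log2 ratio was -0.516 with the length of the coding sequence, -0.412 with the longest transcript, -0.351 with the number of exons, -0.11 with the 5′ UTR and -0.0991 with the 3′ UTR. In livers 1, 2 and 3 it was -0.459, -0.479 and -0.451 with the coding sequence and -0.114, -0.0613 and -0.0931 with the 3′ UTR. When the genes were cut into 3 equal classes by coding sequence, those of at most 1017 nt had a median log2 ratio of 0.51, with 36.2% higher and 5.55% lower. The middle class stood at -0.04. Those of at least 1821 nt stood at -0.53, with 3.52% higher and 34.5% lower. Among genes with a short coding sequence, the medians for short, middle and long 3′ UTRs were 0.69, 0.41 and 0.4. Among genes with a long coding sequence they were -0.67, -0.57 and -0.41, in the opposite order. Genes with 2 to 4 exons had a median of 0.31, and genes with at least 17 exons one of -0.56.

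**Figure D4:**
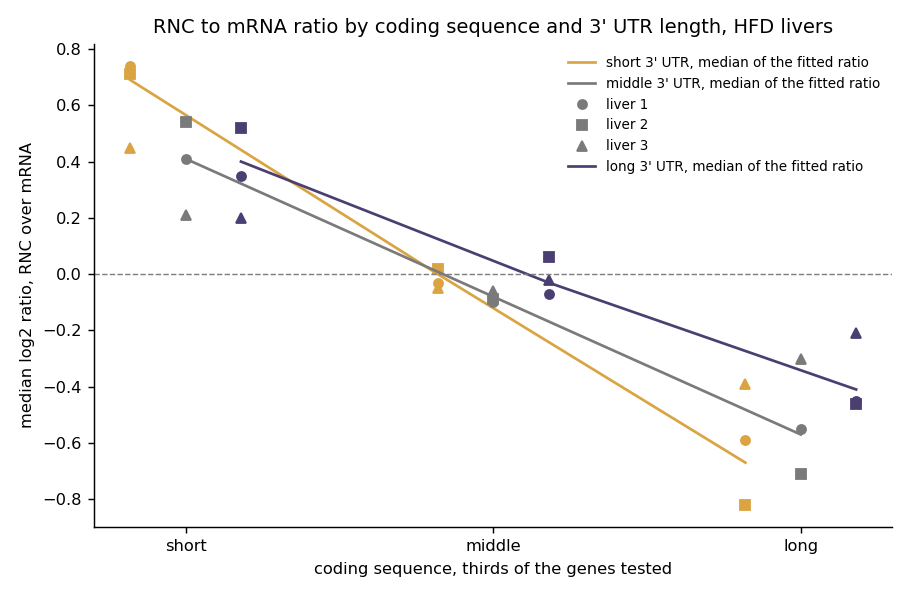
Median log2 RNC to mRNA ratio for 3 equal classes of coding sequence length (horizontal axis) and of 3′ UTR length (colours). Lines join medians of the fitted ratio and symbols are the 3 livers; the lines drop from 0.69, 0.41 and 0.4 at a short coding sequence to -0.67, -0.57 and -0.41 at a long one.

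Several gene lists sat away from coding genes of their members' length classes and others did not. Cytosolic ribosomal proteins, with a median longest transcript of 725 nt, had a median log2 ratio of 0.9 against 0.89 for coding genes of their classes. Cytochromes P450 (0.34 against 0.32) were likewise level with theirs. Oxidative phosphorylation genes stood at 1.2 against 0.89, with 72 of 80 above their class median, and major urinary proteins at 1.43 against 0.89. Proteasome genes stood at 0.77 against 0.32, genes of the unfolded protein response at 0.73 against -0.05, and cholesterol synthesis at 0.64 against -0.05. In the other direction, Zfp genes stood at -0.78 against -0.24, with 245 of 311 below their class median, and snoRNA hosts at -0.48 against 0.89. The reference was coding genes here too, though hosts such as Gas5 carry NR identifiers only. NR-only genes under 1000 nt had a median of 0.05. These are counts and medians without a test. The lists were matched by longest transcript only, not by coding sequence, whose correlation with the ratio was further from 0.

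Markers of other liver cells also moved. Erythroid genes were higher in 4 of 5 cases, with a summed level of 535 to 1544 CPM in RNC and 206 to 589 CPM in mRNA. Hbb-bs, adult beta-globin, had 186, 859 and 448 CPM in RNC and 36.6, 218 and 91.7 CPM in mRNA. The groups overlapped, but every liver had more in RNC, and liver 2 was the highest in both kinds of library (log2 ratio 2.2 ± 0.251, adjusted p = 6.25e-05). Hbb-bt was at 2.12 and Hba-a2 at 1.4. Markers of Kupffer cells and macrophages were higher in 7 of 10 cases and lower in none, with a summed level of 422 to 736 CPM in RNC and 250 to 518 CPM in mRNA. C1qa, a complement protein of macrophages, was at 1.27 (adjusted p = 0.00288) and missed the threshold without liver 1 (0.146). Without liver 2, 3 Kupffer cell markers were higher. Cholangiocyte markers were lower in 2 of 5 cases, with a summed level of 28.9 to 59.3 CPM in RNC and 109 to 139 CPM in mRNA. Spp1, osteopontin, had 52.8, 39.9 and 26 CPM in RNC and 99.6, 124 and 130 CPM in mRNA, with no overlap (log2 ratio -1.63 ± 0.28, adjusted p = 0.000545).

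Hepatocyte markers were higher in 3 of 8 cases and lower in none, with a summed level of 107700 to 154483 CPM in RNC and 41958 to 89287 CPM in mRNA. Endothelial markers gave 1 higher and 1 lower of 7, near the shares over all genes tested (16.8% and 19.1%). Their summed level was 148 to 180 CPM in RNC and 170 to 206 CPM in mRNA. Stellate markers gave 2 higher of 7. Of the lymphocyte markers 2 were tested and none was called, and of the pancreas markers only Cela1 was tested and was higher at 1.04. No muscle marker was tested, and their sum reached 0.42 CPM in RNC and 0.808 CPM in mRNA. Without liver 1, 3 erythroid and 0 Kupffer, hepatocyte, stellate or pancreas markers were higher and 2 cholangiocyte markers were lower. Without liver 2 or liver 3, 1 cholangiocyte marker was lower, and without liver 3, 6 hepatocyte markers were higher. The medians by library size alone were 0.73 for erythroid, 0.06 for Kupffer, -0.09 for hepatocyte and -2.45 for cholangiocyte markers, with 3 erythroid and 0 Kupffer markers called higher. The part of cell makeup in the ratios of other genes was not tested.

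The HFD ratio was set beside that of the other diets in 1 model over all 18 libraries, as the difference of the RNC to mRNA ratio. Of 12,872 genes, 0 differed between HFD and control livers in either direction (0.0% each), with 10 at an unadjusted p under 0.05 in edgeR and 28 in limma-voom, where the count called was also 0. The biological coefficient of variation was 0.43 in the fit of 18 libraries and 0.239 in the HFD fit, and the fit of 18 libraries called 0 genes higher and 1 lower for RNC against mRNA in the HFD livers themselves. A count of 0 from it therefore does not show that the HFD and control ratios were alike. The 2 comparisons of this model share the HFD livers. Between HFD and HFD+LYC livers, the ratio was higher in HFD for 1300 genes (10.1%) and lower for 327 (2.54%). The HFD+LYC RNC libraries stood apart: 8940, 9567 and 10037 genes had a read there, against 13324, 14450 and 14307 in HFD RNC libraries. Without HFD liver 1, 2 or 3 the genes that differed numbered 207, 478 and 278.

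The main features of the HFD ratio can be read liver by liver. Malat1 had log2 ratios of -3.8, -5.26 and -3.2 in HFD livers, -3.87, -4.3 and -4.48 in control livers, and 0.98, 2.03 and 0.51 in HFD+LYC livers on the scale of the 18-library model. The HFD and control livers overlapped, and the HFD+LYC livers were all above 0 (HFD minus HFD+LYC -5.26 ± 0.623 in the fit, adjusted p = 0.0019). Mlxipl had -1.86, -3.49 and -1.28 in HFD, -1.33, -3.51 and -2.52 in control, and -3.88, -4.31 and -2.47 in HFD+LYC livers, with no difference called (adjusted p = 1 and 0.257). The median of the oxidative phosphorylation genes was 1.36, 1.2 and 0.97 in HFD livers, 0.66, 2.27 and 0.94 in control livers and 1.16, 2.15 and 0.28 in HFD+LYC livers. That of the cytosolic ribosomal proteins was 1.09, 0.88 and 0.69 in HFD livers, 0.41, 1.96 and 0.73 in control livers, and -3.26, -1.79 and -3.91 in HFD+LYC livers. In both lists the control livers spread more widely than the HFD livers.

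The relation of the ratio to length was -0.335, -0.333 and -0.337 (Spearman) in HFD livers, -0.302, -0.399 and -0.407 in control livers and -0.147, -0.16 and -0.0403 in HFD+LYC livers, over the 12,872 genes. HFD livers averaged -0.335 ± 0.002 and control livers -0.369 ± 0.0584 (SD, n = 3 each; exact two-sided permutation test, p = 0.4). HFD livers were all further from 0 than HFD+LYC livers (exact two-sided permutation test, p = 0.1, the smallest value that 3 against 3 allows). Only 8940 to 10037 genes had a read in the HFD+LYC RNC libraries. Ratios of genes without a read there rest on the 0.5 CPM added to each level. The part of this in the HFD+LYC correlations was not tested.

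**Figure D5:**
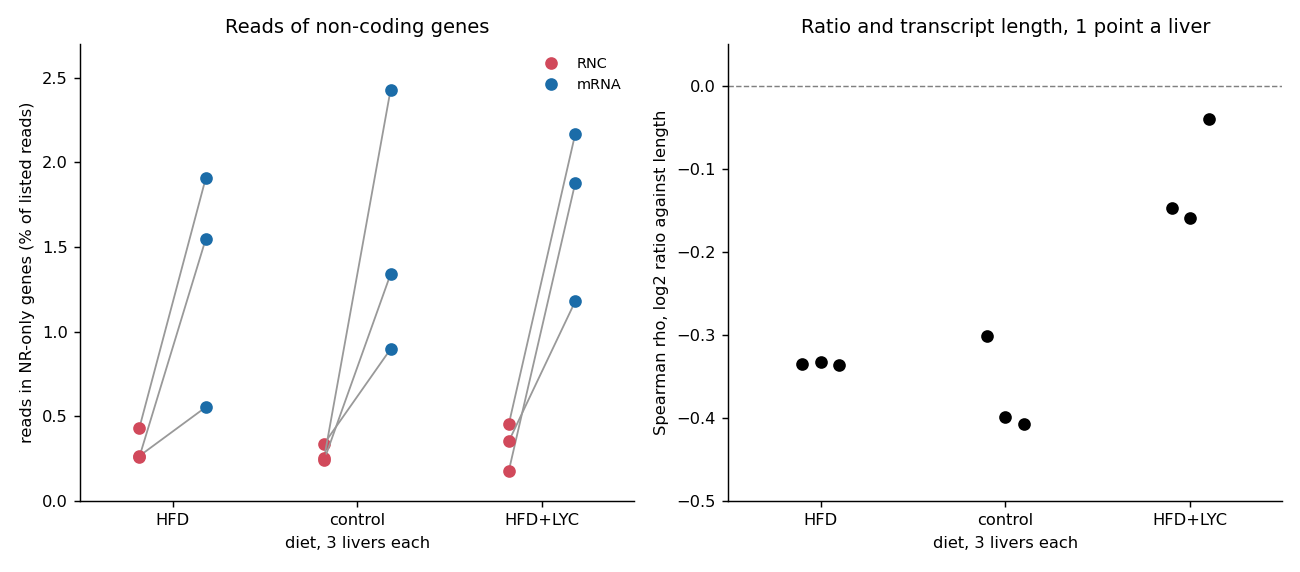
Left, share of reads in NR-only genes in the RNC (red, left) and mRNA (blue, right) library of each liver by diet; right, Spearman correlation of the log2 ratio with transcript length, 1 point a liver. The RNC point is below the mRNA point in 9 of 9 livers, and the correlations of the 3 HFD livers lie between -0.337 and -0.333.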

How the data were processed

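Per the file headers, the deposited files give for each of 24,539 genes a read count, an RPKM value, the longest transcript length and RefSeq identifiers, with splice variants merged. The submitters' processing notes name bcl2fastq and mm10. Aligner and strand use: not given in the sources used here. Tests used the deposited counts, which are whole numbers. RPKM values, as deposited, entered no test, and they imply library totals above the sum of the listed counts. Tests were run in R 4.3.3 with edgeR 4.0.16 (filterByExpr with a minimum count of 10 and a minimum total of 15, TMM, robust quasi-likelihood fit with the liver as a block, Benjamini-Hochberg adjusted p under 0.05 over all genes tested). The fit of the 6 HFD libraries had 2 residual degrees of freedom and a biological coefficient of variation of 0.239. The model of 18 libraries tested diet by library kind with the liver as a block, on 12,872 genes. Levels are TMM-scaled CPM, and per-liver ratios use log2(CPM + 0.5). Standard deviations and n refer to livers. The p-values of the HFD fit rest only in part on a gene's own spread between livers. Most of the weight came from the spread shared across genes, with a median of 18.6 prior against 2 residual degrees of freedom. In a single HFD library 3 reads stand for 0.235 to 0.542 CPM before TMM scaling, and such floors cover counting error only. On the TMM scale of the levels, 3 reads in the RNC library of liver 1 stand for 0.726 CPM. Replicates were not duplicates: the chi-square per degree of freedom between libraries of a kind was 58.4 to 176.

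The pairing comes from the animal code in the deposited names, not from the values. After removal of group means, libraries of the same liver correlated at 0.59, 0.0635 and 0.445, and libraries of different livers at -0.583 to 0.428. Coordinates and gene types come from RefSeq (GRCm38.p6), which 24,475 genes matched by transcript identifier, symbol or, for genes left over, a synonym that led to 1 otherwise unmatched gene, and coding sequences and UTRs from GENCODE M21 (GRCm38). Counts were simulated for the 12,081 genes of the HFD comparison. Changes of 2-, 4- and 8-fold were given to 67, 67 and 66 genes, in random directions and alike in every liver. Of these changes 35.8%, 92.5% and 97.0% were called, and 3.85% of the calls were false. In the HFD comparison far more genes were called and the median moved with the scaling, so 3.85% is not an estimate for those calls. The comparison and the 36 gene lists were chosen with earlier results of these data known. The naming rule took, from genes called at an average of 10 CPM or more with 1 direction in 3 livers, the 12 highest and the 12 lowest ratios; the 8 largest NR-only changes each way with a mean of at least 1 CPM; the 3 largest called changes of each list; and 30 chosen genes. The text gives a part of those, and 1 named gene and the values of the list that holds it are not reported here. Alternatives were DESeq2 1.42.0, limma-voom (limma 3.58.1), other scalings, filters and sample sets, no liver block, and leaving out each liver.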

Additional observations from a re-analysis of the deposited data

Results flagged for a closer look

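The RNC to mRNA ratio of 1627 genes differed between HFD and HFD+LYC livers by the interaction test of edgeR (adjusted p under 0.05), which is why it is listed here: 1300 were higher in HFD and 327 lower. Without the liver block 2116 genes differed, with limma-voom 1921, and without HFD liver 1, 2 or 3 the count was 207, 478 and 278. Malat1 was among them, at -5.26 ± 0.623 for HFD minus HFD+LYC (adjusted p = 0.0019), as was Rps27l at 5.61 ± 0.905 (adjusted p = 0.00582). The HFD+LYC RNC libraries had 8940 to 10037 genes with a read, against 13324 to 14450 in the HFD RNC libraries, and the part of this gap in the count was not tested.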

How the results depend on the processing

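The counts of genes called higher and lower in RNC (2034 and 2307) and of NR-only genes called (18 and 128) kept within 1.5 times under RLE size factors, upper quartile scaling, TMM from coding genes, no filter, DESeq2, limma-voom, control and HFD libraries fitted together and a fit that was not robust, where they ran from 1367 to 2184 higher and 1950 to 2505 lower. Without the replicate block 265 genes were higher and 390 lower, with 3 and 33 NR-only genes. Library size alone gave 192 and 5365, with 4 and 200 NR-only genes. In a fit of all 18 libraries, 0 genes were higher and 1 lower, with 0 and 1 NR-only genes; the biological coefficient of variation was then 0.43. With a mean of at least 10 CPM, 10 NR-only genes were higher and 56 lower. Leaving out each liver in turn gave 206 to 2179 higher and 894 to 2524 lower, and for NR-only genes 5 to 17 and 78 to 134. The mean correlation with length (-0.357) was -0.441 with at least 10 CPM, -0.375 for coding genes, -0.363 as Pearson's r on log2 length and -0.361 by library size alone, and -0.358 to -0.355 leaving out each liver. The log2 RNC to mRNA ratio of the NR-only read share (-1.93) was -0.254 for the share of genes with a read and -2.37 to -1.61 leaving out each liver. The HFD against HFD+LYC count of 1627 was 207 to 478 without an HFD liver; against control it was 0 in every fit. Of 83 single genes named, 50 lost their call without the replicate block, 72 in the fit of all 18 libraries, 11 by library size alone, 31 without liver 1 and 4 without liver 2. Calls were also gained. Without liver 3, Apoa1, Cyp2e1, Fth1 and Ftl1 were called higher and Mfsd2a lower (edgeR adjusted p 0.00146 to 0.0305). By library size alone, Atf4, Fasn and Mfsd2a were called lower (edgeR adjusted p 0.00169 to 0.0134). Uncalled ratios that changed sign were Eef2 (-0.45), Apoa1 (-0.21), Apob (-0.17), Fth1 (-0.05) and Ftl1 (-0.12) by library size alone, and Fasn without liver 3 (-0.25 to 0.08 leaving out each liver). A depth of 5535100 reads in the shallowest library limits rows below about 0.542 CPM there before TMM scaling, or 0.726 CPM on the TMM scale.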
